A study of Rattus norvegicus and Mus musculus with 18 samples.

Results

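The branching ends of the mouse ureteric bud, the tips, were compared with its unbranched trunk, the stalk, at embryonic stage E12.5. The 4 arrays titled as bud tip or bud stalk, 2 of each, were chosen by their titles out of the 18 arrays of a study of the embryonic kidney, and every probe set of the mouse array design was used. The 2 mouse arrays of metanephric mesenchyme from the same stage served to place each gene, and 12 rat arrays of whole bud and mesenchyme at E13.5 gave a reading from other animals. The labels give no strain, genotype or treatment beyond the dissection, so all groups are taken as untreated embryos. Kidneys were loosened for 10 min in trypsin and DNase, the mesenchyme was pulled away, and tips were cut from stalks with fine pins. About 1000 tips, some 350 stalks and some 300 mesenchymes were pooled from mouse; the rat pools came from about 1200 buds and from 240 mesenchymes. From each pool 1 ug of total RNA was labelled in 2 separate labelings, so that every p-value here measures the spread of labelling and hybridisation within 1 RNA pool and not the spread between embryos.

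The ureteric bud is the epithelial tube that grows out of the nephric duct and branches to form the collecting duct system. Its tips carry the receptor Ret, respond to GDNF from the surrounding mesenchyme and divide to make new branches, while the stalk elongates and later forms the collecting duct trunk and the ureter lining. The mesenchyme around it holds nephron progenitors and stroma, and the part next to the ureter stalk becomes smooth muscle in answer to Sonic hedgehog from the epithelium.

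All values are probe set intensities on a linear scale, quantile normalised over the 6 mouse arrays, and differences are in log2(intensity + 16), where the added constant makes changes of weak genes look smaller. A gene was called higher in a pool when it was at least 2-fold higher and its limma adjusted p (Benjamini-Hochberg) was under 0.05. Each gene is represented by its brightest probe set, and a probe set was tested when at least 1 pool reached an intensity of 49.5, the median of the table. Of 12359 genes tested, 143 (1.16%) were higher in tips and 516 (4.18%) were higher in stalks. Against mesenchyme, stalks had 363 genes higher (2.94%) and 69 lower (0.558%), and tips had 575 higher (4.65%) and 625 lower (5.06%). Counted by probe set, 4.59% were called between tips and stalks, 2.77% between stalks and mesenchyme, and 8.16% between tips and mesenchyme. Both sides were then divided by the mesenchyme arrays. A gene was mesenchyme-low when the pool in which it was higher was also called above mesenchyme and mesenchyme lay under 49.5. It was above mesenchyme when that pool was called above a mesenchyme level of 49.5 or more. It was level when pool and mesenchyme did not differ by the same rule, and below when the pool was called lower. These classes use the same arrays as the comparison of tips with stalks and therefore describe the called genes without testing them.

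The 2 sides divided very differently. On the tip side 53 genes (37.1%) were mesenchyme-low, 84 (58.7%) were above mesenchyme, 6 (4.2%) were level with it and 0 were below it. On the stalk side 442 genes (85.7%) were level with mesenchyme, 34 (6.59%) were below it, and 33 (6.4%) were above it, with a further 7 (1.36%) mesenchyme-low. The 442 level genes had median intensities of 81.8 in tips, 320 in stalks and 341 in mesenchyme, so at the median the stalk pool stood near the mesenchyme level. Level means not called at 2-fold, and single genes could still differ. In stalks Bmp4 was at 194% of mesenchyme and Aldh1a2 at 57.2%. Among the stalk genes 40 were called higher than in both tips and mesenchyme. In bulk tissue, fewer cells of a type and less RNA per cell cannot be told apart.

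**Figure D1:**
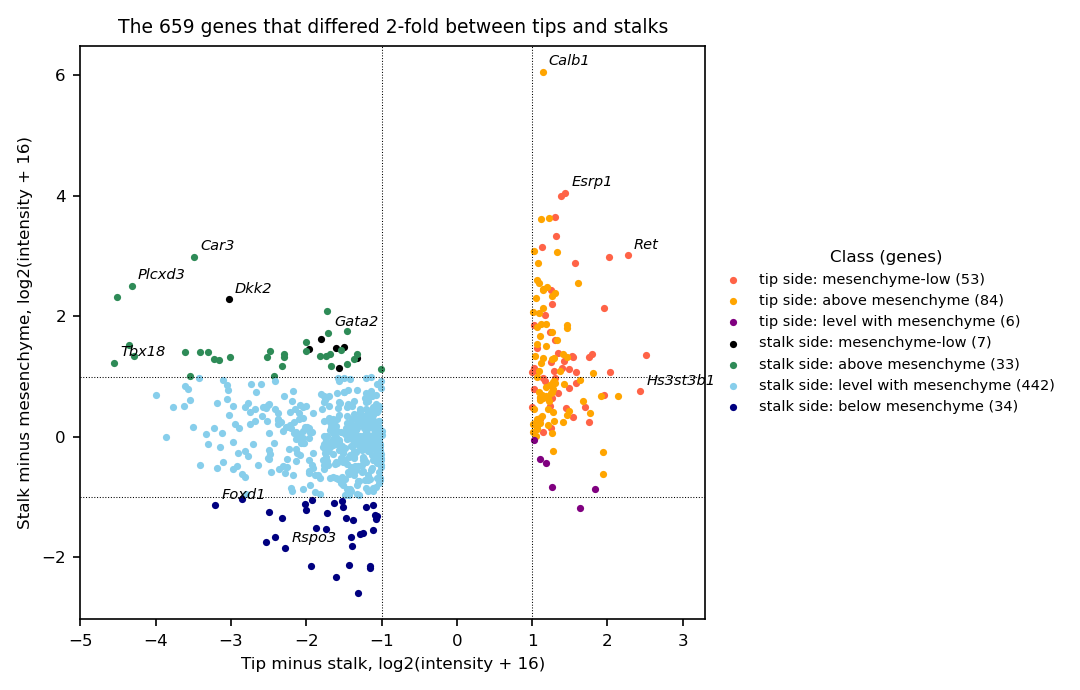
Each point is 1 of the 659 genes called between tips and stalks, with the tip minus stalk difference on the horizontal axis and the stalk minus mesenchyme difference on the vertical axis, both in log2(intensity + 16). Colours give the class and dotted lines the 2-fold limits; most points on the left lie between the horizontal lines, while Car3, Plcxd3 and Dkk2 stand above them.

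What both bud pools share gave the first reference. Epithelial junction and polarity genes, which any epithelium expresses, had a median difference of 0.74 towards tips over 35 tested genes, beside 0.06 over all genes tested, and 7 of them passed the 2-fold limit in tips against 0 in stalks. Their stalk intensity was, at the median, 57.4% of the tip intensity and 601% of the mesenchyme intensity. The summed intensity of the list was 40395 and 40027 in the tip arrays, 24335 and 24766 in the stalk arrays, and 3058 and 3298 in the mesenchyme arrays. Cdh1, the adhesion molecule of epithelial cells, was at 1952 and 1938 in tips, 1308 and 1360 in stalks, and 18.1 and 13.2 in mesenchyme, and its difference of 0.54 did not reach 2-fold. The tight junction gene Cldn8 was at 2636 and 2518 in tips and at 2454 and 2382 in stalks, a difference of 0.09. Epithelial genes thus ranged from -0.29 to 1.44, the highest being the splicing regulator Esrp1, at 1808 and 1708 in tips against 638 and 641 in stalks.

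A wider set chosen without a list was shifted the same way. It shares arrays and many genes with the epithelial list, Cdh1 and Esrp1 among them, and is no separate support. In all, 294 genes were called above mesenchyme in both bud pools, and 266 of them had a difference towards tips. Their median was 0.64, or 1.56-fold, with quartiles of 0.35 and 0.98. Of these 294 genes, 70 were called higher in tips and 0 were called higher in stalks. The set requires a call above mesenchyme in tips, so stalk genes without that call could not enter it. Its median includes the 70 tip genes. Measured against that median, a gene was 2-fold or more beyond the shared shift when its difference was 1.64 or more, which held for 19 of the 143 tip genes, and 36 tip genes lay beyond Esrp1. In the other direction 8 of the 294 genes lay 2-fold or more under the median. The part of differing epithelial shares of the pools in these values was not tested.

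**Figure D2:**
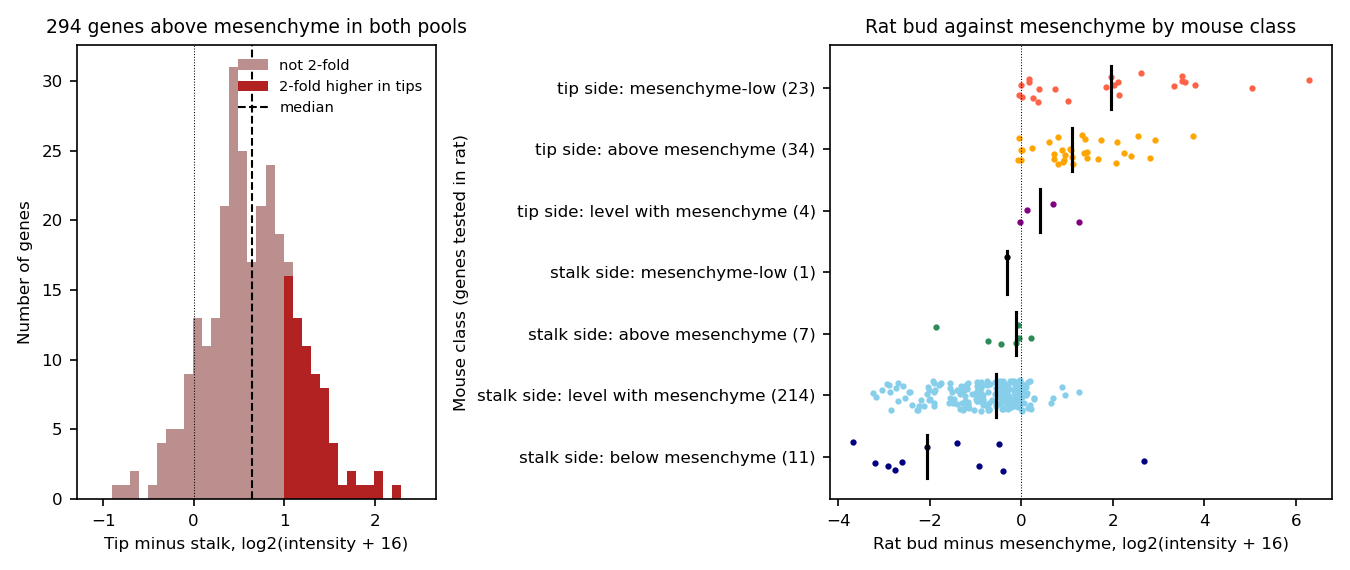
Left, the number of genes by tip minus stalk difference in log2(intensity + 16), for the 294 genes called above mesenchyme in both mouse pools, with genes called higher in tips in dark red and the median of 0.64 dashed. Right, the rat bud minus mesenchyme difference of each mouse class gene that was tested in rat, 1 point per gene with the class median as a bar; the mesenchyme-low tip genes have a median of 1.96 and the level stalk genes of -0.54.

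The 143 tip genes fell into 70 that stalks also held above mesenchyme, 72 not called between stalks and mesenchyme, and 1 that was lower in stalks than in mesenchyme. Some of the 72 could still differ by less than 2-fold, as Bmpr1b did, with a stalk excess of 0.83 (limma adjusted p = 0.000334). Hs3st3b1, which adds sulphate to heparan sulphate chains, was at 380 and 276 in tips, 50.0 and 43.6 in stalks, and 19.4 and 22.7 in mesenchyme. Its difference was 2.44 (SE 0.17, adjusted p = 1.33e-05) and the arrays of tips and stalks did not overlap. It has 3 tested probe sets, from 0.46 to 2.44, and their mean of 0.86 was under 2-fold. Sox8, a transcription factor that acts with Sox9 in branching, was at 167 and 140 in tips, 35.5 and 33.0 in stalks, and 25.5 and 27.3 in mesenchyme (difference 1.75, SE 0.14, adjusted p = 3.02e-05). Ros1, a receptor tyrosine kinase, was at 205 and 160 in tips, 45.2 and 44.2 in stalks, and 23.6 and 30.6 in mesenchyme (1.70, SE 0.16, adjusted p = 7.92e-05). Neither was called above mesenchyme in stalks. For 13 of the 143 tip genes both the stalk and the mesenchyme mean lay under 49.5.

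Genes of the signalling that GDNF and FGF start in tip cells included several that stalks did not hold above mesenchyme by the 2-fold rule. Gfra1, the co-receptor that binds GDNF for Ret, was at 1732 and 1572 in tips, 470 and 476 in stalks, and 368 and 346 in mesenchyme (1.77, SE 0.06, adjusted p = 2.49e-07). Etv4, an Ets transcription factor downstream of Ret, was at 680 and 694 in tips, 172 and 162 in stalks, and 253 and 275 in mesenchyme. Its relative Etv5 was at 1406 and 1331 in tips, 366 and 327 in stalks, and 458 and 374 in mesenchyme. For both factors the stalk means lay under the mesenchyme means without passing the 2-fold limit (-0.61 and -0.25). Of 19 Ets factors tested, these 2 were higher in tips and the vessel factor Fli1 was higher in stalks (-1.64). Of 25 Sprouty, Spred and Dusp genes, which encode inhibitors of receptor tyrosine kinase signalling, Spry1 (1.46) and Dusp4 (1.19) were higher in tips and 0 were higher in stalks. Spry1 was at 2628 and 2740 in tips, 959 and 977 in stalks, and 744 and 743 in mesenchyme. Dusp6 was at 2735 and 2570 in tips and 1432 and 1412 in stalks, a difference of 0.89 that stayed under 2-fold. Met, the receptor of hepatocyte growth factor, was at 661 and 575 in tips, 227 and 216 in stalks, and 200 and 169 in mesenchyme (1.41, SE 0.10, adjusted p = 1.78e-05). Met lies outside the rule for named genes and was chosen after its values were seen. The same holds, here and in the next paragraphs, for Myb, Abcg5, Frem2, Erbb3, Lhx1, Emx2, Tfap2a, Grhl2, Ovol2, Cdh3, Pou3f3, Sall4 and Abcc4.

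In 6 tip genes tips did not differ 2-fold from mesenchyme. Cxcr4, the chemokine receptor for Cxcl12, was at 549 and 460 in tips, 140 and 120 in stalks, and 247 and 254 in mesenchyme (1.83, SE 0.11, adjusted p = 4.9e-06). Its ligand Cxcl12 ran the other way, at 296 and 321 in tips, 1776 and 1878 in stalks, and 2214 and 2473 in mesenchyme (-2.51), though a further probe set of it differed by -0.12. The unclassified transcript AY036118 was at 3707 and 3526 in tips, 1162 and 1150 in stalks, and 2580 and 2714 in mesenchyme, the 1 tip gene that was called lower in stalks than in mesenchyme. Btbd11 (1.27), Dusp4, the glycine cleavage enzyme Gldc (1.11) and the cystathionine lyase Cth (1.02) completed this class. Cth was at 746 and 846 in tips, 379 and 387 in stalks, and 402 and 397 in mesenchyme, so its stalk and mesenchyme levels were close and the tip stood higher (0.96 against mesenchyme, under 2-fold). Cth was no longer called with the values as deposited (0.98), with a pseudocount of 64 (0.94) or without the second tip array (0.93). Gldc was lost with that pseudocount (0.88) or without the first tip array (0.97), and Dusp4 with that pseudocount (0.99).

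**Figure D3:**
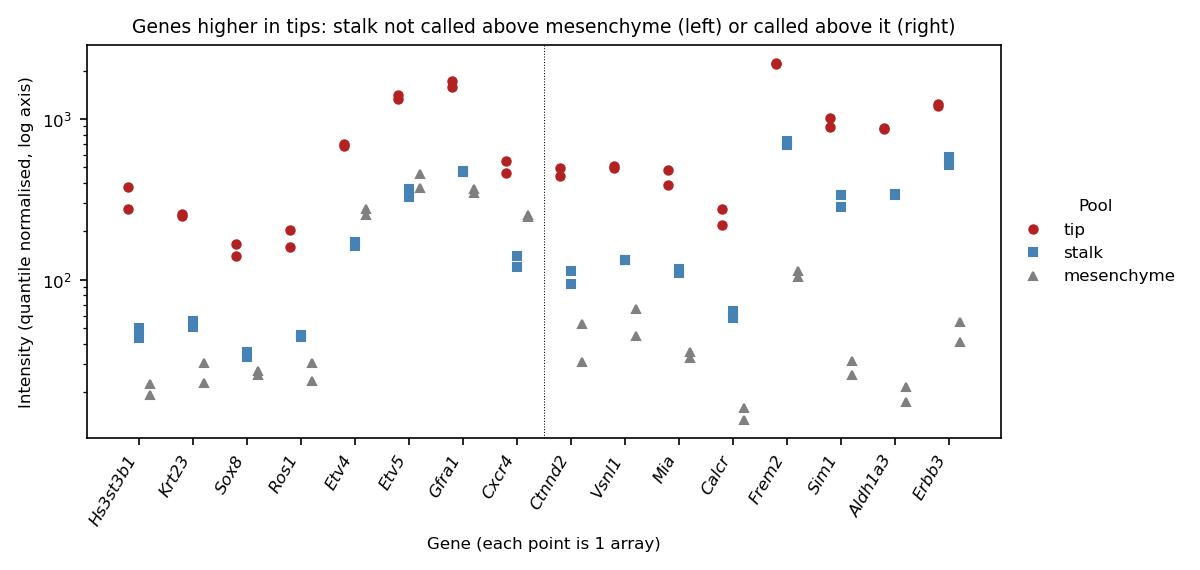
Intensity on a log axis of 16 genes higher in tips, with 1 point per array and pool. On the left are 8 genes not called above mesenchyme in stalks at 2-fold, such as Etv4 and Cxcr4. On the right the stalk arrays of 8 genes lie between tips and mesenchyme, as for Frem2 and Aldh1a3.

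The other 70 tip genes marked the bud as a whole and were stronger in tips. Ctnnd2, a delta-catenin of cell junctions, was at 498 and 442 in tips, 113 and 94.2 in stalks, and 53.0 and 30.9 in mesenchyme (2.03, SE 0.19, adjusted p = 7.07e-05). Vsnl1, a calcium sensor, was at 494 and 510 in tips, 132 and 132 in stalks, and 45.0 and 66.2 in mesenchyme (1.81). Calcr, the calcitonin receptor, was at 274 and 219 in tips, 64.3 and 57.6 in stalks, and 16.1 and 13.4 in mesenchyme (1.76), and the secreted protein Mia was at 483 and 388, 117 and 111, and 32.8 and 35.7 in the same order (1.79). Frem2, a basement membrane protein of the Fraser complex, was at 2201 and 2216 in tips, 693 and 730 in stalks, and 104 and 113 in mesenchyme (1.61, SE 0.06, adjusted p = 3.13e-07). In each of these genes the pools were ordered tip, stalk, mesenchyme with no overlap of arrays. Other matrix genes with this order were the laminin chain Lama1 (1.33) and nephronectin, Npnt (1.33), a ligand of integrin alpha 8 on the mesenchyme. The mean over the 5 probe sets of Npnt, 0.90, was under 2-fold. The integrin gene, Itga8, was on the other side, at 113 and 69.3 in tips, 668 and 613 in stalks, and 889 and 884 in mesenchyme (-2.64).

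Among the 70 were transcription factors of the nephric duct. Sim1 was at 1014 and 896 in tips, 339 and 283 in stalks, and 25.6 and 31.4 in mesenchyme (1.57, SE 0.12, adjusted p = 2.31e-05). Lhx1, needed for duct growth, was at 463 and 410 in tips and 178 and 164 in stalks (1.27), and Emx2 at 1965 and 2017 in tips and 933 and 877 in stalks (1.12). The POU factor Pou3f3 (1.31) and the AP-2 factors Tfap2b (1.14) and Tfap2a (1.09) had the same direction. The epithelial factors Ovol2 (1.35) and Grhl2 (1.07) and the stem cell factor Sall4 (1.04) followed. Myb (1.64) was a tip gene that stalks did not hold above mesenchyme by the 2-fold rule. Gata3, a regulator of the duct, was at 548 and 567 in tips and 267 and 274 in stalks, a difference of 1.00 that fell just short. Gata2 went the other way and is described with the stalk genes. Over 6 tested GATA and AP-2 genes, 2 were higher in tips and 3 were higher in stalks. With a pseudocount of 64 Grhl2 (0.99) and Sall4 (0.87) were no longer called, nor were they over their probe sets (0.66 and 0.76), and Sall4 was also lost without the first tip array (0.96) or the first stalk array (0.97).

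Of 14 aldehyde dehydrogenases, 3 were higher in tips and 2 in stalks. Aldh1a3, which makes retinoic acid, was at 872 and 875 in tips, 342 and 339 in stalks, and 21.7 and 17.5 in mesenchyme (1.32, SE 0.10, adjusted p = 1.76e-05). Aldh1a2, the stromal enzyme for the same step, was at 290 and 303 in tips, 1195 and 1192 in stalks, and 2076 and 2099 in mesenchyme (-1.95, SE 0.05, adjusted p = 2.54e-08). Cyp7b1, an oxysterol hydroxylase, was the 1 of 15 cytochrome P450 genes called at 2-fold, at 871 and 845 in tips, 293 and 309 in stalks, and 83.3 and 62.3 in mesenchyme (1.46), with a mean of 0.95 over its probe sets. The sterol transporter Abcg5, also not above mesenchyme in stalks by the rule, was at 356 and 307 in tips and 100 and 85.1 in stalks (1.67), and the efflux pump Abcc4 at 474 and 467 in tips and 170 and 150 in stalks (1.47). Of 226 solute carriers, 2 were higher in tips and 4 in stalks, beside 1.16% and 4.18% of all genes tested. The growth factor binding protein Igfbp2 was at 4388 and 4590 in tips, 1709 and 1752 in stalks, and 835 and 767 in mesenchyme (1.37), whereas Igf1 (-1.96) and Igfbp5 (-1.33) were higher in stalks, Igfbp5 not over its probe sets (-0.80). Erbb3, a receptor of neuregulins, was at 1203 and 1233 in tips, and 518 and 579 in stalks (1.13), and the adhesion molecule Cdh3 was at 558 and 601, 227 and 228, and 70.6 and 95.5 (1.29). The means over their probe sets, 0.74 and 0.92, stayed under 2-fold.

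Some genes of the bud leaned to the stalk against the general shift, although 0 of the 294 bud genes was called there at 2-fold. Genes that tips did not hold above mesenchyme are left out of that set by its rule. At an adjusted p under 0.05 with any size of difference, 8 of the 294 were higher in stalks, while over all genes tested 1971 (15.9%) were higher in tips and 2127 (17.2%) in stalks by that rule. Shh, the Hedgehog ligand of the distal ureter epithelium, was at 321 and 344 in tips, 588 and 511 in stalks, and 96.8 and 97.0 in mesenchyme (-0.69, SE 0.09, adjusted p = 0.000638). Clu, a secreted chaperone, was at 410 and 450 in tips, 733 and 793 in stalks, and 165 and 235 in mesenchyme (-0.80, SE 0.14, adjusted p = 0.00235), and all 4 of its probe sets lay between -0.97 and -0.74. Sox9 was at 445 and 452 in tips, 604 and 594 in stalks, and 208 and 173 in mesenchyme (-0.40, SE 0.09, adjusted p = 0.00846), opposite in direction to its partner Sox8, and its second probe set was at -0.03. Lgals3, a lectin of collecting duct cells, was at 71.2 and 72.0 in tips and 113 and 126 in stalks (-0.63), and Anxa1 at 167 and 156 in tips and 231 and 235 in stalks (-0.49). Mymx was the furthest to this side (-0.87), from weak tip arrays of 60.2 and 34.2. The kidney cadherin Cdh16 was at 1833 and 1827 in tips, 2050 and 2212 in stalks, and 58.4 and 61.1 in mesenchyme (-0.22, SE 0.06, adjusted p = 0.0217), and the receptor Fgfr2 differed by the same amount (-0.22, adjusted p = 0.0463). In each of these 8 genes both stalk arrays lay above both tip arrays. Apart from Shh, Cdh16 and Fgfr2, and like Cdh1, Sfrp1 and Fzd7 elsewhere, they were named after their values were seen.

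Markers known for the stalk and the later urothelium did not single out the stalk arrays. Of 15 tested genes of that list, 1 was higher in stalks, Foxa1, and 0 in tips, with a median of 0.17. Wnt7b, a ligand of the stalk epithelium, was at 222 and 276 in tips and 221 and 269 in stalks (0.02, adjusted p = 0.92). Krt7 was at 495 and 454 in tips and 462 and 471 in stalks (0.02, adjusted p = 0.919). In both genes the arrays of the pools overlapped. The urothelial genes Upk3a, Upk3b, Trp63 and Krt20 did not reach an intensity of 49.5 in any pool. Wnt7b and Krt7 were also chosen after their values were seen.

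On the stalk side the 7 mesenchyme-low genes had low intensities in the other pools. Dkk2, a secreted modulator of Wnt signalling, was at 15.5 and 14.3 in tips, 246 and 226 in stalks, and 38.3 and 33.0 in mesenchyme (-3.03, SE 0.13, adjusted p = 8.59e-07), and its stalk excess over mesenchyme was 2.29. Foxa1, a forkhead factor of endodermal and urothelial epithelium, was at 21.8 and 27.3 in tips, 113 and 84.8 in stalks, and 27.6 and 21.8 in mesenchyme (-1.50, SE 0.17, adjusted p = 0.00023). Cldn11, a claudin, was at 14.4 and 9.82 in tips, 90.3 and 95.2 in stalks, and 25.7 and 22.0 in mesenchyme (-1.96, SE 0.14, adjusted p = 1.61e-05). Penk, which encodes an opioid peptide precursor and is known from stroma, was at 39.2 and 26.5 in tips, 152 and 156 in stalks, and 37.2 and 41.6 in mesenchyme (-1.81). The fucosyltransferase Fut9 was at 18.4 and 15.2 in tips, 80.6 and 88.0 in stalks, and 22.8 and 17.1 in mesenchyme (-1.61). The vasopressin receptor Avpr1a (-1.32) and the zinc finger factor Zfp536 (-1.56) made up the rest. In all 7 genes both stalk arrays lay above the 4 others, and stalk intensities were low for all but Dkk2 and Penk. With a pseudocount of 64, Foxa1 (-0.87), Fut9 (-0.88), Avpr1a (-0.78) and Zfp536 (-0.95) were no longer called, and Zfp536 also fell under 2-fold over its probe sets (-0.80).

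**Figure D4:**
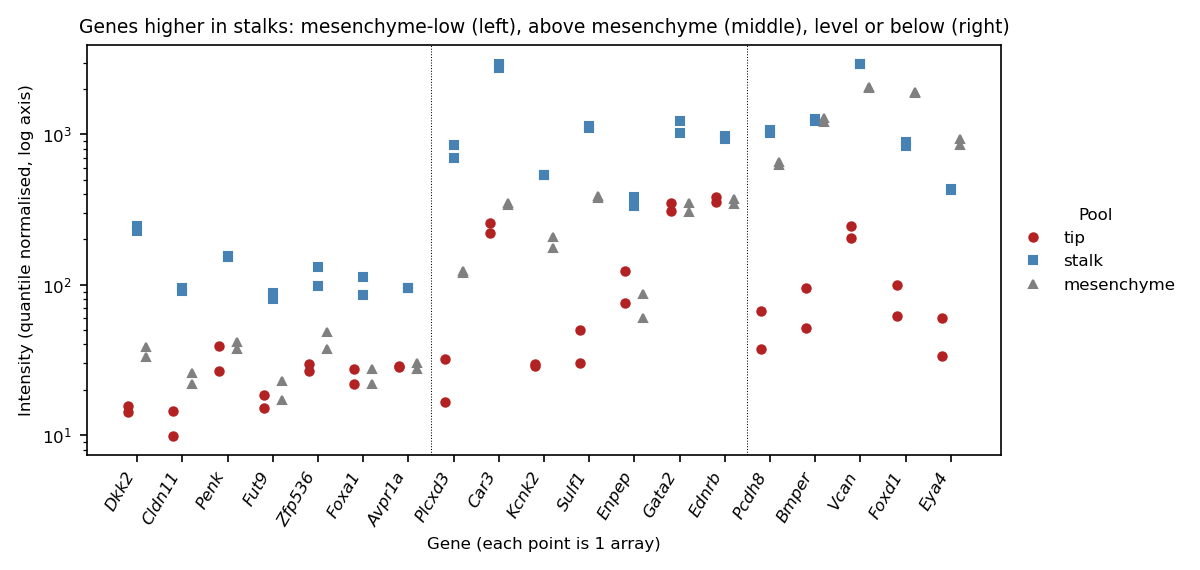
Intensity on a log axis of 19 genes higher in stalks, with 1 point per array and pool. In the left and middle groups the stalk arrays lie above both tips and mesenchyme, as for Dkk2, Car3 and Gata2; in the right group mesenchyme is near the stalk, as for Bmper, or above it, as for Foxd1.

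The 33 genes above a measurable mesenchyme level included Sulf1 and Plcxd3, among the largest differences of the comparison. Car3, a carbonic anhydrase of muscle and ureteric mesenchyme, was at 258 and 221 in tips, 2769 and 2924 in stalks, and 351 and 340 in mesenchyme (-3.49, SE 0.07, adjusted p = 1.48e-08), with a stalk excess over mesenchyme of 2.99. Plcxd3, which encodes a phospholipase C-like protein, was at 31.8 and 16.6 in tips, 853 and 695 in stalks, and 124 and 120 in mesenchyme (-4.32, SE 0.18, adjusted p = 6.81e-07). Sulf1, which removes sulphate from heparan sulphate, was at 50.3 and 30.3 in tips, 1143 and 1102 in stalks, and 389 and 375 in mesenchyme (-4.36, SE 0.15, adjusted p = 1.7e-07), so the enzymes Hs3st3b1 and Sulf1 that act on this sugar were found on opposite sides. Kcnk2, a potassium channel subunit, was at 28.6 and 29.5 in tips, 533 and 535 in stalks, and 209 and 175 in mesenchyme (-3.61, SE 0.12, adjusted p = 1.35e-07), while its relative Kcnk1 was just past 2-fold in tips (1.02). Kcnk1 was not called with the values as deposited (0.99), with a pseudocount of 64 (0.96), over its probe sets (0.97) or without the first tip array (1.00). Iigp1, an interferon-inducible GTPase, was at 86.1 and 54.4 in tips, 967 and 968 in stalks, and 466 and 481 in mesenchyme (-3.54). Plxna2 (-2.01) and Plxnc1 (-1.82), receptors of semaphorins, belonged here too, and Sema4d, a semaphorin, was higher in tips (1.28) but not over its probe sets (0.68). The semaphorin, plexin and neuropilin family as a whole had a median of 0.11 over 30 genes.

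The stalk excess over mesenchyme was then set beside that of the stromal list. Among its 24 tested genes the highest excess of stalk over mesenchyme was 1.62, for Penk, and 7 genes called higher in stalks exceeded it. They were Car3 (2.99), Plcxd3 (2.51), Actc1 (2.32), Dkk2 (2.29), Enpep (2.08), Pou3f1 (1.75) and Gata2 (1.73). Car3 and Actc1 are themselves on the list of ureteric mesenchyme and smooth muscle genes, and the rest of the 7 are not. The highest excess of that list was the 2.99 of Car3 itself, so the 7 do not lie beyond this list. Tbx18, the factor that marks ureteric mesenchyme, was at 72.2 and 35.5 in tips, 1620 and 1500 in stalks, and 658 and 650 in mesenchyme (-4.55), with an excess of 1.23. Enpep, the aminopeptidase A gene, was at 123 and 75.9 in tips, 385 and 334 in stalks, and 86.7 and 59.9 in mesenchyme (-1.73, SE 0.21, adjusted p = 0.000415). Pou3f1, a POU transcription factor, was at 121 and 118 in tips, 364 and 346 in stalks, and 102 and 87.4 in mesenchyme (-1.46, SE 0.11, adjusted p = 2.29e-05). Gata2, a transcription factor of the nephric duct and of other tissues, was at 310 and 350 in tips, 1023 and 1218 in stalks, and 304 and 350 in mesenchyme (-1.71, SE 0.10, adjusted p = 5.21e-06). Ednrb, the endothelin B receptor, was at 382 and 356 in tips, 928 and 975 in stalks, and 372 and 346 in mesenchyme (-1.33). For Enpep, Gata2 and Ednrb the tip and mesenchyme arrays overlapped and the stalk stood alone. Enpep, Pou3f1 and Ednrb were named after their values were seen.

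Of the 40 genes higher in stalks than in both other pools, 24 were not called between tips and mesenchyme and 16 were called lower in tips than in mesenchyme. The tip intensity of the 40 was 56.7% of mesenchyme at the median. Of the 442 level genes, 364 were called lower in tips than in mesenchyme and 0 had a difference above 0, with a median tip intensity of 28.9% of mesenchyme. This direction is largely set by the class, whose genes are 2-fold lower in tips than in stalks and not called between stalks and mesenchyme. For the 34 genes that stalks held below mesenchyme the order of the pools is fixed by the class, and the levels were at the median 8.69% of mesenchyme in tips and 34% in stalks.

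Several of the largest differences among the 442 level genes follow. Pcdh8, a protocadherin, was at 67.2 and 37.3 in tips, 1073 and 1024 in stalks, and 623 and 652 in mesenchyme (-4.00, SE 0.17, adjusted p = 6.93e-07). Bmper, a secreted BMP regulator, was at 95.5 and 51.8 in tips, 1273 and 1227 in stalks, and 1215 and 1292 in mesenchyme (-3.86, SE 0.18, adjusted p = 1.28e-06). The proteoglycan Vcan was at 244 and 203 in tips, 2930 and 2930 in stalks, and 2072 and 2032 in mesenchyme (-3.63), and the lipid receptor S1pr3 at 261 and 222, 3073 and 3178, and 1636 and 1849 in the same order (-3.61). Matn2, Clstn2 and Col25a1 followed at -3.77, -3.54 and -3.57, although a further probe set of Col25a1 was at 0.11. The first tip array was higher than the second for 339 of the 442 level genes and for 29 of the 34 genes below mesenchyme, including every gene with array values in this paragraph. This was also seen in other classes, to differing extents, and the share over all genes tested is not given here. It held for 25 of the 33 stalk genes above mesenchyme and 4 of the 7 mesenchyme-low stalk genes. On the tip side it held for 45 of 53 mesenchyme-low, 49 of 84 above and 3 of 6 level genes. Among the 34 genes below mesenchyme, the stromal factor Foxd1 was at 99.6 and 62.1 in tips, 889 and 832 in stalks, and 1922 and 1889 in mesenchyme (-3.21, SE 0.15, adjusted p = 1.09e-06), Eya4 at 60.2 and 33.3, 424 and 433, and 936 and 851 (-2.86), and the hyaluronan synthase Has2 at 46.2 and 29.4, 293 and 277, and 743 and 648 (-2.50).

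Marker lists of cell types were read next, by the levels of their genes in each pool. Of 24 stromal and interstitial genes, 22 were higher in stalks and 0 in tips, with a median of -2.32, and the stalk level was 110% of mesenchyme at the median against 19.4% in tips. The summed intensity of this list was 7926 and 7587 in tips, 38231 and 38023 in stalks, and 37431 and 36411 in mesenchyme. Genes of ureteric mesenchyme and smooth muscle, the coat of the stalk, stood at 236% of mesenchyme in stalks and 48.3% in tips, with 9 of 14 higher in stalks (median -1.52) and sums of 3498 and 3353, 11768 and 12028, and 4664 and 4641 in the same order of pools. That list was not uniform, since 2 of its 14 genes had a difference towards tips, the highest 0.98. In tips, 2 of the 14 were called above mesenchyme. Within that list the contractile genes were mixed. Actc1, cardiac actin, was at 48.2 and 63.3 in tips, 1532 and 1690 in stalks, and 308 and 310 in mesenchyme (-4.51), and the myosin light chain Myl9 was higher in stalks too (-2.48), level with mesenchyme. Acta2 (-0.05) and Tagln (-0.50) were not called, and Myh11, Cnn1, Actg2, Myocd, Synpo2 and Lmod1 did not reach 49.5 in any pool. Nephron progenitor genes stood at 34.6% of mesenchyme in stalks and 13.8% in tips, with 10 of 19 higher in stalks (median -1.11) and sums of 2981 and 2963, 7118 and 7040, and 17108 and 17466. Six2, which defines nephron progenitors, was at 105 and 105 in tips, 153 and 155 in stalks, and 563 and 633 in mesenchyme (-0.49). In the stalk pool stromal genes thus stood near the mesenchyme level and progenitor genes below it. Six2, Myl9, Acta2 and Tagln were named after their values were seen. The part of these cells in the stalk differences was not tested, and no listed gene read 0, since the lowest value of the table was 5.3.

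**Figure D5:**
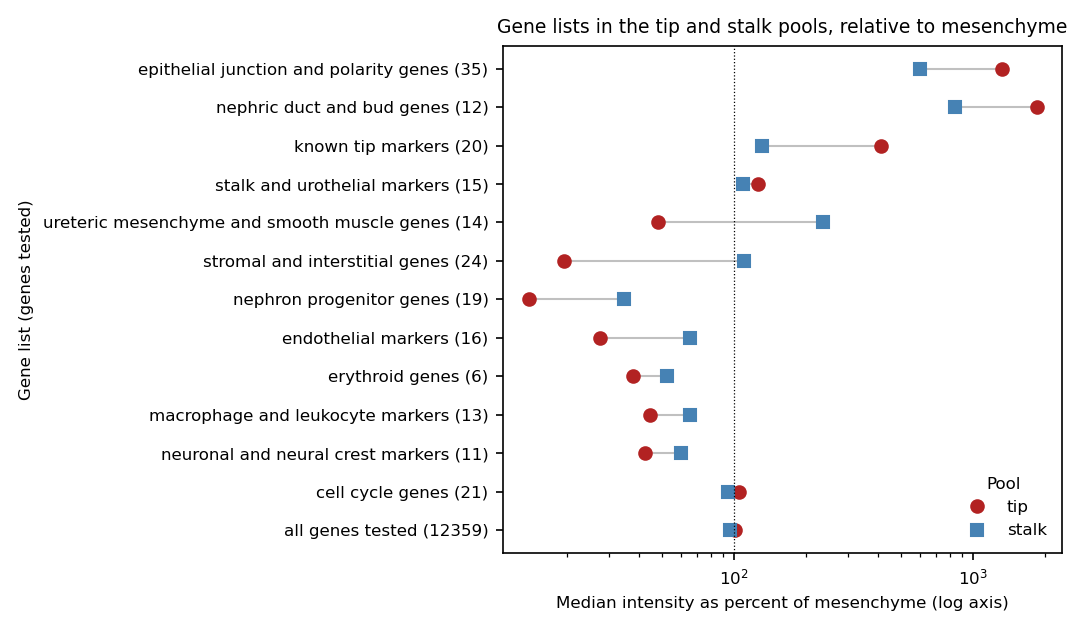
Median intensity of each gene list in tips (circles) and stalks (squares) as a percent of mesenchyme, on a log axis, with the number of genes tested in parentheses. Stromal genes stand at 110% in stalks and 19.4% in tips, ureteric mesenchyme genes at 236% and 48.3%, and epithelial genes at 601% and 1330%.

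Markers of vessels, blood and nerve were mixed. Of 16 endothelial markers 7 were higher in stalks, among them Plvap, Cd34, Emcn and Tek, with a list median of -0.98 and levels of 65.5% of mesenchyme in stalks and 27.5% in tips. The summed intensities were 1627 and 1708 in tips, 3088 and 3236 in stalks, and 4805 and 4878 in mesenchyme. Of 6 erythroid genes 2 were higher in stalks (median -0.60), of 13 macrophage and leukocyte markers 1 (Ctss, median -0.39), and of 11 neuronal and neural crest markers 2 (Nefm and Nefl) against Ret in tips (median -0.05). Early response genes of dissected tissue were higher in stalks for 3 of 20 (Fos, Fosb and Klf4, median -0.38), and at an adjusted p under 0.05 for 13 of 20 with 0 in tips, beside 17.2% of all genes, while Egr1 was at 3584 and 3357 in tips and 3721 and 4006 in stalks (-0.15). Without the second tip array Fosb (-0.90), Klf4 (-0.97) and the endothelial markers Pecam1 (-0.89) and Sox17 (-0.85) fell under 2-fold. With a pseudocount of 64 the endothelial Tek (-0.84), Pecam1 (-0.71) and Sox17 (-0.64) were no longer called. Nor were Ctss (-0.81), Nefm (-0.84), Nefl (-0.59), Fosb (-0.92) and Klf4 (-0.83) with that pseudocount. The part of these cells and of handling in the results was not tested.

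In the Hedgehog pathway the ligand gene Shh leaned to stalks, and of 14 tested genes 5 were higher in stalks and 0 in tips (median -0.49). The receptor and target Ptch1 was at 676 and 649 in tips, 1903 and 1805 in stalks, and 792 and 793 in mesenchyme (-1.46, SE 0.05, adjusted p = 1.66e-07), with a mean over both probe sets of -0.70. The target factor Gli1 was at 50.5 and 49.8 in tips, 167 and 198 in stalks, and 79.5 and 89.2 in mesenchyme (-1.58, SE 0.14, adjusted p = 4.77e-05), and the target Hhip, named after its values were seen, was weaker (-1.14) and not called with a pseudocount of 64 (-0.61). The signal transducer Smo was at 732 and 759 in tips and 738 and 750 in stalks (0.00). Against mesenchyme the stalk difference was 1.21 for Ptch1, which was called, and 0.98 for Gli1, which stayed under 2-fold.

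In the BMP and TGF-beta group, 9 of 24 genes were higher in stalks and 1 in tips (median -0.48). The ligand Bmp4 was at 174 and 190 in tips, 1033 and 1046 in stalks, and 540 and 532 in mesenchyme (-2.41, SE 0.06, adjusted p = 4.31e-08). Tgfb2 was at 23.4 and 22.8 in tips, 269 and 233 in stalks, and 312 and 314 in mesenchyme (-2.77), and the antagonist Fst was higher in stalks by a log2 difference of -2.08. The receptor Bmpr1b was the tip gene of the group, at 445 and 431 in tips, 179 and 186 in stalks, and 97.6 and 93.5 in mesenchyme (1.19, SE 0.09, adjusted p = 2.36e-05), though the mean over its 3 probe sets was 0.77. The target gene Id3 was at 3307 and 3257 in tips and 4238 and 4366 in stalks (-0.39), under 2-fold. The target genes Id1 and Id2 were called higher in stalks.

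Of 33 Wnt pathway genes, 5 were higher in tips and 11 in stalks (median -0.21). Besides Wnt11, the tip side held the ligand Wnt6, at 207 and 211 in tips, 77.0 and 79.8 in stalks, and 37.1 and 51.8 in mesenchyme (1.26, SE 0.15, adjusted p = 0.000313), and the receptor Fzd8 (1.03). It also held Lgr5 (1.11) and Rnf43 (1.06), which tune the response to R-spondins, whereas their relative Lgr4 was at 1092 and 1075 in tips and 1606 and 1694 in stalks (-0.60). Over their probe sets Lgr5 (0.55) and Fzd8 (0.78) were not called. The stalk side held the secreted modulators Dkk2, Sfrp2, Sfrp1 and Frzb, the R-spondins Rspo3 and Rspo1, and the receptors Fzd1, Fzd7 and Fzd2, of which Fzd7 (-1.14) was not called over its probe sets (-0.68). Sfrp2 was at 479 and 477 in tips, 2628 and 2668 in stalks, and 1315 and 1303 in mesenchyme (-2.43, SE 0.04, adjusted p = 6.27e-09), while Rspo3 was at 29.6 and 23.9 in tips, 202 and 180 in stalks, and 761 and 700 in mesenchyme (-2.28). Wnt6, Fzd8, Lgr5, Rnf43 and Bmpr1b were outside the rule for named genes and chosen after their values were seen. With a pseudocount of 64 Wnt6 (0.94), Fzd8 (0.88), Lgr5 (0.75) and Rnf43 (0.74) were no longer called, and without the first stalk array Lgr5 (0.98) and Fzd8 (0.97), without the second tip array Lgr5 (0.99) and Fzd8 (0.93), or without the first tip array Rnf43 (0.96) were not called either. Of 17 Notch pathway genes, 1 weak gene, Hey2 (-1.08, or -0.53 with a pseudocount of 64 and then not called), was higher in stalks and 0 in tips (median 0.03).

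Gene families were counted by the same rule, by which 1.16% of all genes tested were higher in tips and 4.18% in stalks. Of 29 collagen genes 14 were higher in stalks and 0 in tips (median -0.85), and the basement membrane collagen Col4a1 was at 1948 and 2061 in tips and 1459 and 1457 in stalks (0.46). Of 28 Hox genes 11 were higher in stalks and 1, Hoxb6, in tips (1.07, SE 0.06, adjusted p = 3.57e-06). Hoxb6, named after its values were seen, was at 1207 and 1179 in tips, 532 and 587 in stalks, and 517 and 500 in mesenchyme. Of 32 cadherins and protocadherins 7 were higher in stalks, led by Pcdh8 and Cdh11 (-2.91), and 1, Cdh3, in tips. Of 27 forkhead genes 6 were higher in stalks and 0 in tips, and of 27 ADAM and ADAMTS proteases 4 and 0. Fibroblast growth factors and their receptors (13 genes) and tetraspanins (20 genes) had 0 calls on either side by limma. At an adjusted p under 0.05 with any size of difference, 2 and 5 genes were higher in tips and 5 and 4 in stalks. Over all genes tested, 15.9% were higher in tips and 17.2% in stalks at that adjusted p. Cell cycle genes had 0 of 21 calls and a median of 0.18, with 11 higher in tips and 0 in stalks at an adjusted p under 0.05, and Pcna was at 6890 and 6437 in tips and 5800 and 5968 in stalks (0.18). Proteasome subunits (43 genes) had 0 calls and a median of 0.06, with 16 higher in tips by that rule. Ribosomal protein genes (43 genes) had 0 calls and a median of 0.01, with 2 genes on either side, and their summed intensities lay between 343828 and 348356 over the 6 arrays.

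The rat arrays, from other animals and with the bud taken whole, gave a reading of the classes by gene symbol. Over the 3 rat designs 7576 genes were tested, of which 217 (2.86%) were higher in bud and 161 (2.13%) lower than in mesenchyme. Of the mouse mesenchyme-low tip genes, 23 were tested in rat and 14 were higher in rat bud with 0 lower (median 1.96). They included Aldh1a3, at 3826 and 4521 in bud against 36.5 and 38.0 in mesenchyme (6.29, SE 0.12, adjusted p = 1.51e-05), and Ctnnd2, at 576 and 579 against 72.6 and 91.2 (2.61, SE 0.12, adjusted p = 0.000125). Of the tip genes above mesenchyme, 19 of 34 were higher in rat bud and 0 lower (median 1.09). For comparison, of the 294 genes above mesenchyme in both mouse pools, 143 were tested in rat. Of those, 63 were higher in rat bud and 0 lower (median 0.88). That set includes 70 of the tip genes, and a higher level in rat bud was not particular to tip genes. The tip genes not called between mouse stalks and mesenchyme were higher in rat bud for 15 of 28, and those that stalks held above mesenchyme for 19 of 33, with 0 lower in both.

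For the stalk genes the rat whole bud read differently by class. Of the level genes 66 of 214 were lower in rat bud and 1 was higher (median -0.54), among them Cdh11, at 88.1 and 94.5 in bud and 639 and 713 in mesenchyme (-2.69, SE 0.11). Of the genes below mesenchyme 7 of 11 were lower and 1 was higher (median -2.07). Of the genes above mesenchyme 7 were tested, 1 was lower (Sfrp2, -1.87) and 0 higher (median -0.12). Car3 was at 129 and 150 in rat bud and 110 and 124 in mesenchyme (0.22, adjusted p = 0.435), and Gata2 at 223 and 239 in bud and 233 and 271 in mesenchyme (-0.12, adjusted p = 0.525). The arrays of both tissues overlapped for Gata2 and did not for Car3. The single mesenchyme-low stalk gene tested, Cldn11, differed by -0.32 without passing. Without the second rat bud array these counts were 12 of 22 and 19 of 33 for the first and second tip classes and 75 of 213, 7 of 11 and 1 of 7 for the level, below and above stalk classes.

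Repeat arrays correlated across probe sets at r = 0.993 in tips and 0.998 in stalks, and tip arrays with stalk arrays at 0.974 to 0.982; genes, over which these r were taken, are no independent replicates. The median absolute gap between repeat arrays was 0.14 in tips, 0.069 in stalks and 0.10 in mesenchyme on the log2 scale, so tips were the least repeatable pool. All probe sets that differed 2-fold also passed the adjusted p, by limma with 0 exceptions, so the fold set the calls. Of the 143 tip genes 61 had other tested probe sets, and in 60 of them all had the same direction; of the 516 stalk genes the same held for 235 of 259. In 30 and 164 genes another probe set was also called, and 0 were called the opposite way.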

How the data were processed

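The deposited tables give linear intensities, 1 value for each probe set on each array. How they were summarised and scaled is not given in the sources used here. Per the labels, 1 ug of pooled RNA was labelled 2 times for each tissue. The 45101 mouse probe sets were quantile normalised over the 6 mouse arrays (the 2% trimmed means of the arrays had differed by 10.4%) and transformed to log2(intensity + 16), and 64 control probe sets were left out. Of the remaining 45037, 23937 reached 49.5, the median of the table, in at least 1 pool and went into limma 3.58.1 under R 4.3.3 (lmFit, eBayes with trend, all 6 arrays in 1 fit, Benjamini-Hochberg over all tested probe sets), and 228 were called higher in tips and 870 in stalks. A call needed 2-fold and an adjusted p under 0.05. The 3 rat designs were fitted separately by the same steps.

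Symbols came from the array platform's annotation: 34945 had 1 symbol, 932 several and 9160 none, and symbols could not be updated, so old names may remain. A gene is represented by its probe set of highest mean. The named genes are the largest differences of each class and, for each list or family, up to 4 called members and the brightest uncalled one; others are marked as chosen after their values were seen. The comparison, the classes and the lists were chosen with earlier results of these data known. Arrays with the same number deviated together from their group means (correlations of 0.467 for tip and stalk, 0.566 for tip and mesenchyme, 0.424 for stalk and mesenchyme), so the numbers were taken to pair the arrays and a block fit was run as an alternative. Scripts were tested on simulated data. No sequences were used.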

Additional observations from a re-analysis of the deposited data

Results flagged for a closer look

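Crym, which encodes a thyroid hormone binding protein, was flagged because mouse and rat went opposite ways in every array. In mouse it was at 46.6 and 34.4 in tips, 146 and 125 in stalks, and 631 and 661 in mesenchyme, differences from mesenchyme of -3.56 for tips and -2.13 for stalks. In rat it was at 864 and 1291 in bud and 133 and 169 in mesenchyme, a difference of 2.69 (SE 0.23, limma adjusted p = 0.00281). Each species has 1 tested probe set for it here, and the difference between the species was not tested. Whether the mouse and the rat probe set are both annotated to the right gene could not be checked here, so the opposite directions may not refer to the same transcript. Groups of 2 arrays are too small for a test of single outlying arrays.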

How the results depend on the processing

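No call of a named gene changed direction under any of the 16 settings tried. Of 199 called named genes 142 kept their call in all of them, and 57 lost it in at least 1, most often with a pseudocount of 64 (41 genes) or with the mean of all probe sets of a gene (31 genes). A pseudocount of 64 in place of 16 lowered the counts of probe sets to 671 for tips against stalks (144 higher in tips, 527 in stalks), 392 for stalks against mesenchyme and 1266 for tips against mesenchyme, and the genes to 90 higher in tips and 331 in stalks. It left 30 mesenchyme-low tip genes, 2 mesenchyme-low stalk genes, 288 level and 14 below, and 190 genes above mesenchyme in both pools, with 410 genes in the same class and 11 in another. With mesenchyme-low set at the 60th percentile the tip side had 89 such genes and 48 above, and the stalk side 11 such genes; at the 40th percentile the stalk side had 4. Pairing the arrays by number in a replicate block changed no call, with 1098 probe sets called as without it. In this balanced layout the block leaves every difference as it was, and the fold set the calls. The unchanged count therefore says little about pairing. Leaving out 1 array at a time gave 1058 to 1258 probe sets, 136 to 162 genes higher in tips, 474 to 597 higher in stalks, 48 to 70 mesenchyme-low tip genes, 7 to 9 mesenchyme-low stalk genes, 406 to 520 level and 28 to 37 below. The lone array of a pool was then assumed to vary like the others. With 2 labelings of 1 pool per tissue and no detection calls, weak genes are the least certain.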
